A study of Mus musculus with 12 samples.

Results

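Amino acid catabolism and the urea cycle were followed through 49 genes chosen by symbol, from 36047 genes with a matched transcript in the liver RNA of 12 mice. The genes cover the urea cycle (6 members), glutamate and glutamine deamination (2), the breakdown of tyrosine (5), tryptophan (6), serine (2), proline (3), branched-chain amino acids (12), lysine (1), histidine (4) and glycine (4), and the aminotransferases (4). All 49 passed the filter on low counts, as did 14670 genes in all. The mice were adult male C57Bl/6J animals of 5 to 6 months, with 3 animals per group (RF.Ctrl and RF.SAAR on regular fat, HF.Ctrl and HF.SAAR on high fat), killed after 7 days on their diets. Mice of all groups drank water labeled with deuterium, and their food was withdrawn for some hours before they were killed. The levels below are therefore not those of freely feeding mice. All diets, those of the controls included, were free of cysteine and matched in nitrogen. In the sulfur amino acid restricted diets (SAAR) methionine was also reduced and glutamic acid took its place, so that restriction and added glutamic acid cannot be told apart. Fat supplied 18% of energy in the regular-fat (RF) and 60% in the high-fat (HF) diets. RNA came from whole liver, and fewer hepatocytes and less RNA of a gene per hepatocyte cannot be told apart in such samples.

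The liver removes amino acids that are not needed for protein. Aminotransferases and deaminases strip the amino group, which reaches the urea cycle as ammonia and aspartate, and the carbon skeletons pass through pathway-specific enzymes into glucose, ketone bodies or the citric acid cycle. Entry into several pathways is set by an abundant, hormone-regulated enzyme such as tyrosine aminotransferase or tryptophan dioxygenase. The branched-chain amino acids are an exception in that their first transamination takes place mainly outside the liver, while the liver oxidizes the resulting keto acids.

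Total estimated counts were 16203094 to 21230092 per mouse. Summed markers of hepatocytes held 84530 to 111000 CPM (counts scaled to library size). On the TMM scale this sum was 96180 to 111000 CPM in RF.Ctrl and 84530 to 93290 in RF.SAAR, without overlap. At high fat it overlapped, at 90880 to 105400 CPM in HF.Ctrl and 90380 to 101500 in HF.SAAR. Summed markers of T and B cells held 1.88 to 16.8 CPM, and those of Kupffer cells 210 to 353. Summed cholangiocyte markers were 42.89 to 61.92 CPM in Ctrl and 35.2 to 42.84 in SAAR livers, without overlap on this TMM scale. Neither the hepatocyte nor the cholangiocyte sums were compared on library size alone. Most of the cholangiocyte sum was Spp1, at 36 to 48.7 CPM in Ctrl and 28.8 to 35.2 in SAAR livers. Krt19, Epcam and Sox9 overlapped at a few CPM, and Krt7 was 0.778 to 1.1 CPM in HF.Ctrl and 1.03 to 1.74 in HF.SAAR. Of the 7 hepatocyte markers tested, Fgb and Serpina1c were themselves called lower under SAAR (SAAR vs. Ctrl averaged over fat). Their falls were 0.26 and 0.52 on the log2 scale, with edgeR adjusted p of 0.0172 and 0.000522. None of the 7 was called higher, but Ahsg stood at 9457 to 10325 CPM in HF.SAAR against 5756 to 8082 in HF.Ctrl, without overlap. At regular fat the values of Ahsg overlapped. The cholangiocyte marker Spp1 and the stellate cell marker Lrat were also lower, by 0.46 and 0.59 (adjusted p of 0.00767 and 0.0177). The endothelial marker Lyve1 was higher by 0.55 (adjusted p = 0.00746). Each was the only 1 of the 5 markers of its list called in that comparison. The part of these markers in the results was not tested. Pancreatic acinar genes, all 22 detected, exceeded 1000 CPM in 5 livers (1 RF.Ctrl, 2 HF.Ctrl and 2 HF.SAAR) and reached 17290 CPM in 1 HF.SAAR mouse, against 39.99 to 84.98 CPM in the other 7. With the acinar sum as a covariate and all 12 mice kept, the 7 calls averaged over fat held and that of Otc at regular fat did not, and the fit without these libraries is given beside the averaged result. The RF.SAAR mouse numbered 3 had the lowest level of the 12 mice for 27 of the 49 members, and the RF.SAAR mouse numbered 2 had the highest for 13.

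Differences between groups are given as log2 fold changes of CPM on edgeR's TMM scale, which sets the typical gene to no change, with the standard error and the Benjamini-Hochberg adjusted p of the quasi-likelihood F-test over all 14670 genes. A gene was called at an adjusted p under 0.05. The scale matters here. TMM factors were 0.863 to 0.998 in Ctrl and 0.98 to 1.11 in SAAR mice, and without them the median gene was higher under SAAR by 0.163 on the log2 scale. The members together held 1.85 to 2.26% of the counts in Ctrl livers and 2.12 to 2.45% in SAAR livers. The directions below are therefore relative to the median gene. Main calls that change with the scale are named, as are changes of the medians printed below.

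On the per-length scale (TPM, which also divides by transcript length) the members spanned more than 2 orders of magnitude. Hpd, which opens the aromatic ring pathway after tyrosine transamination, had a mean over the 12 mice of 1602 TPM, and the argininosuccinate synthase gene Ass1 had 1598. Next came Arg1 with 1212 TPM, Tdo2 with 1045 and Glud1 with 816. At the other end were Sdsl with 9.03 TPM, the branched-chain dehydrogenase kinase gene Bckdk with 6.97 and Acmsd, which diverts tryptophan carbon from NAD synthesis, with 6.81. The ranges over the 12 mice overlapped for 47 of the 48 pairs of neighbours in this order, and the exception was the step from Nags, whose lowest level rounded to 19 TPM, down to Sdsl. Bcat2, which transaminates branched-chain amino acids in mitochondria, was at 55.8 to 74.9 TPM in the group means, and Bcat1 stayed at or below 1.23 CPM in every mouse.

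**Figure D1:**
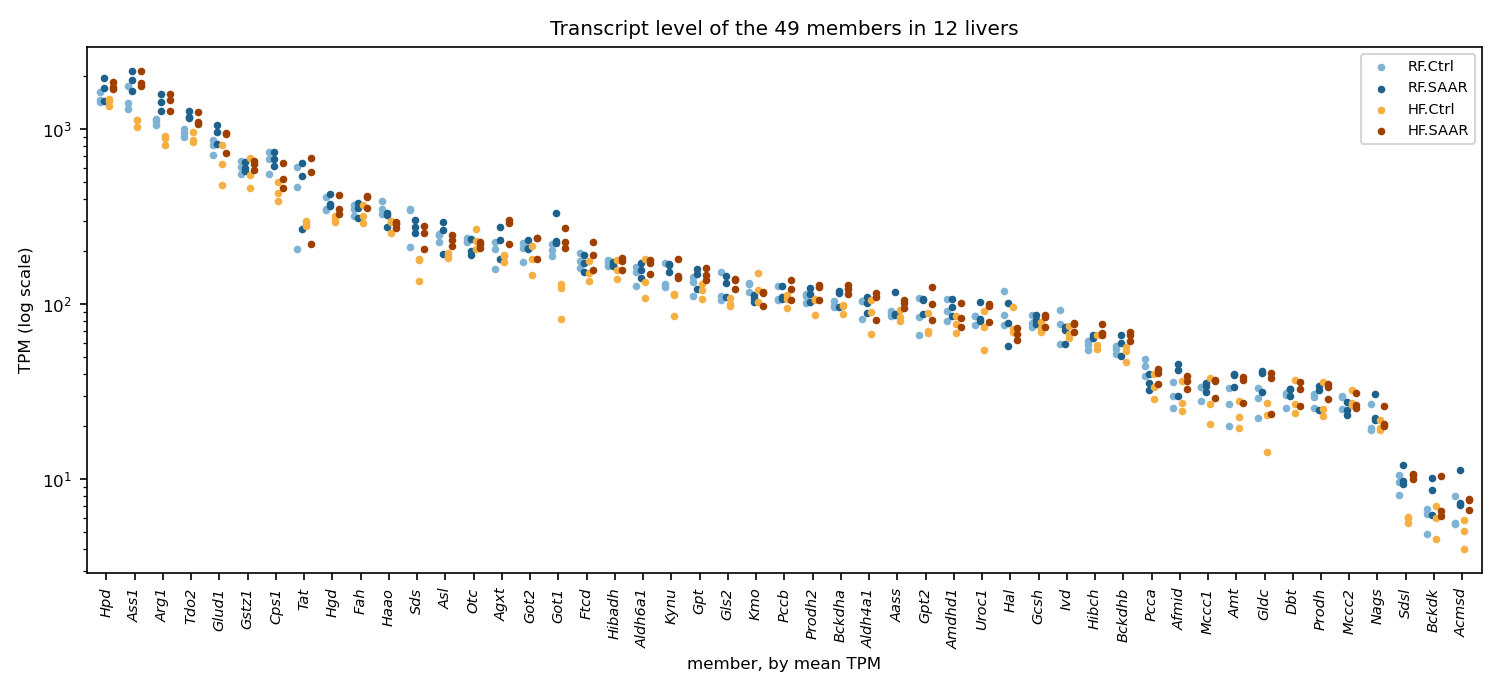
Level of the 49 members in TPM (log scale) in each of the 12 livers, ordered by the mean over mice and coloured by group. Levels run from 1602 TPM for Hpd to 6.81 TPM for Acmsd, and neighbours overlap except between Nags and Sdsl.

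Members differed in how much they varied between mice of one group. The median within-group SD of log2 CPM was 0.15. Tat, the tyrosine aminotransferase gene, had the largest at 0.65, with 437, 1014 and 1440 CPM in RF.Ctrl alone. Got1 had 0.35, Sds and Acmsd 0.32 and Sdsl 0.31, whereas Hibadh and Pcca had 0.06 and Kmo 0.10. A difference of the same size was thus resolved for some members and not for others, as the interval widths in the plot of effects show.

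**Figure D2:**
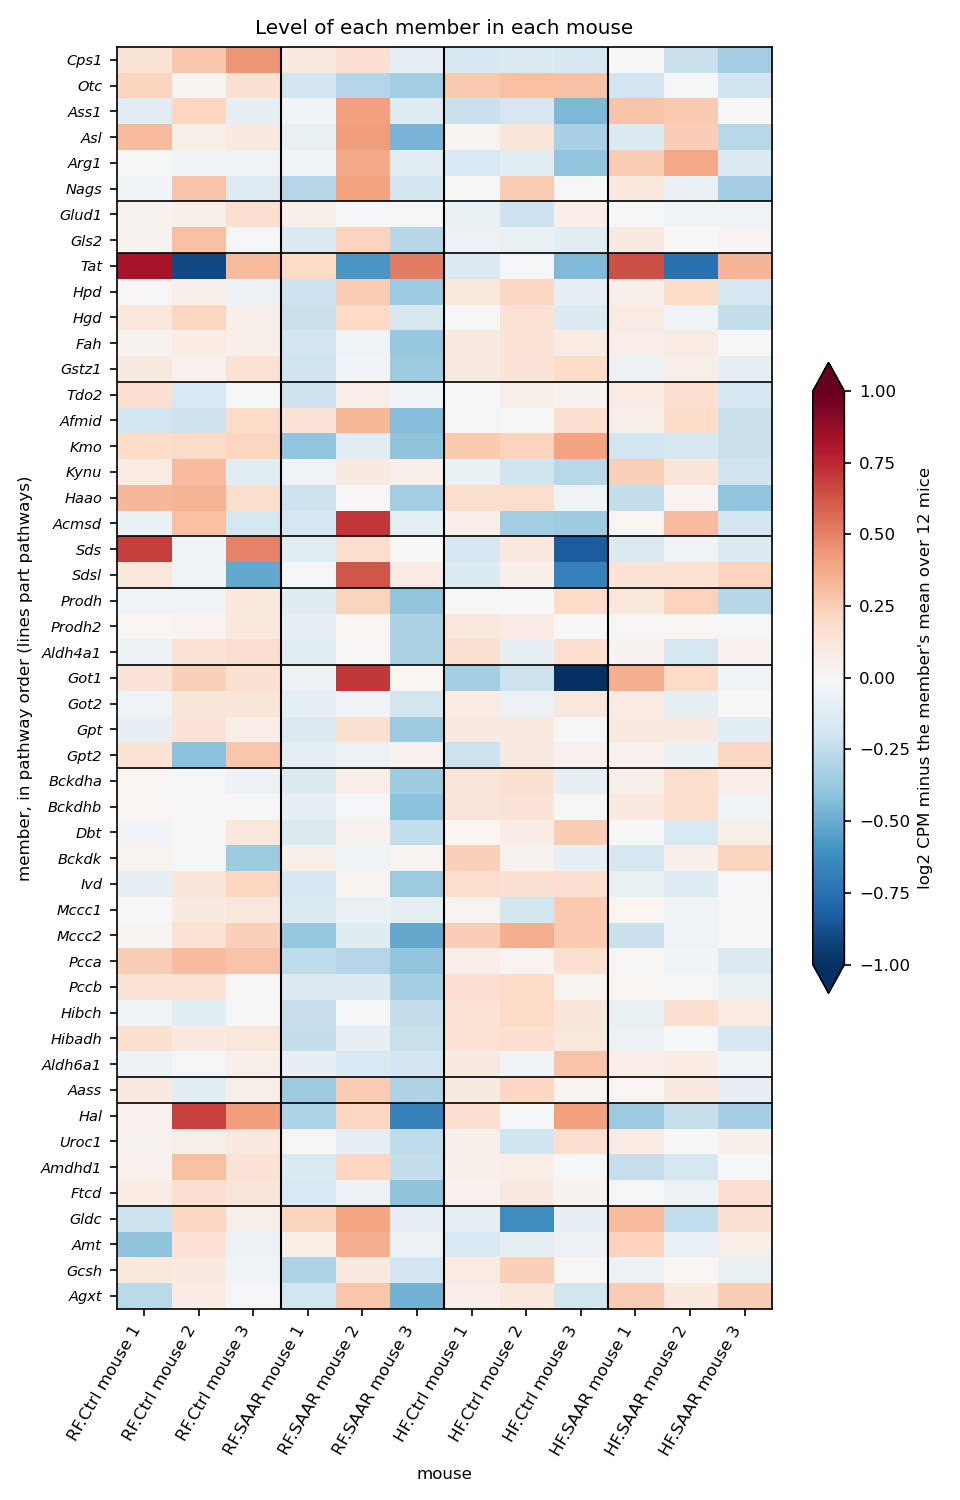
Log2 CPM of each member in each mouse minus the member's mean over the 12 mice, with members in pathway order and mice by group. Otc, Kmo, Mccc2, Pcca and Hibadh are lower in all 6 SAAR mice than in all 6 Ctrl mice, Tat swings within groups, and the column of RF.SAAR mouse 3 is low for most members.

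Restriction at regular fat lowered 3 of the 49 members and raised none (RF.SAAR vs. RF.Ctrl). Otc, Kmo and Pcca passed the test, where 0.886% of all genes were called lower and 0.6% higher. Of the 49, 40 had a fold change below 0, and the median was -0.159 against -0.001 for all genes. That median was -0.002 with library size alone, -0.080 without RF.SAAR mouse 3 and -0.266 without RF.SAAR mouse 2. With library size alone Pcca was the only member called, where 66 of all genes were called lower and 359 higher. Otc and Kmo then had edgeR adjusted p of 0.143 and 0.101. At an unadjusted p under 0.05 there were 11 members, as were 13.6% of all genes. DESeq2 called 8, all lower, where it called 2.7% of genes lower and 2.15% higher. For 15 members all RF.SAAR mice lay below all RF.Ctrl mice, as for 9.7% of genes, and for none above, as for 8.51%. Pcca kept its call with each of the 12 mice left out in turn. Without any 1 of the RF.Ctrl mice numbered 1, 2 and 3 or the RF.SAAR mice numbered 1 and 3, Pcca alone was called. Over all genes, 55 to 64 were called lower in these fits, against 130 with all mice.

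At high fat 2 members were lower and none higher (HF.SAAR vs. HF.Ctrl). Otc and Kmo passed, where 0.961% of genes were called lower and 1.01% higher. The fold change was below 0 for 30 members and above 0 for 19, with a median of -0.042 against -0.001 for all genes. The sign of that median was not stable, at 0.119 with library size alone and 0.010 without HF.SAAR mouse 3. With library size alone 3 members were called higher (Arg1, Ass1 and Got1) and 0 lower, where 639 of all genes were called higher and 80 lower. There were 9 members at an unadjusted p under 0.05, as were 12.4% of genes. DESeq2 called Otc and Kmo lower and Got1 higher, where it called 2.21% of genes lower and 2.5% higher. Groups did not overlap for 10 members that were lower (8.97% of genes) and 4 that were higher (8.89%), the latter being Got1, Sdsl, Gls2 and Ass1. Each call rested on 3 mice a group: leaving out any 1 of the 6 HF mice left 0 or 1 member called (Kmo without HF.Ctrl mouse 2, Otc without HF.SAAR mouse 2, and 0 without any of the other 4). Calls over all genes fell as well, to between 48 and 128 lower in these fits against 141 with all mice.

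With both fat levels averaged, 7 members were called lower and none higher (SAAR vs. Ctrl averaged over fat), against 3.7% of all genes lower and 3.22% higher. The count was 4 without HF.Ctrl mouse 1 or RF.SAAR mouse 3 and 9 without RF.SAAR mouse 2. Over all genes, 376, 392 and 514 were called lower in these fits, in that order, against 543 with all mice. The 7 were Otc of the urea cycle, Kmo and Haao of tryptophan breakdown, Mccc2, Pcca and Hibadh of branched-chain breakdown, and Hal of histidine breakdown. In 5 of them, Otc, Kmo, Mccc2, Pcca and Hibadh, all 6 SAAR mice lay below all 6 Ctrl mice, which was true of 2.37% of genes, and no member had all SAAR mice above, as 1.94% of genes did. At an unadjusted p under 0.05 there were 17 members, against 20.3% of genes, and DESeq2 called 9, all lower, against 4.49% of genes lower and 4.68% higher. The median of the 49 was -0.107 and turned to 0.055 with library size alone. Scaled by library size alone, 3 members stayed lower (Otc, Kmo and Mccc2) and 5 were called higher (Arg1, Ass1, Got1, Sdsl and Amt), while over all genes the calls went from 472 higher and 543 lower to 2175 higher and 274 lower. Leaving out the 5 libraries above 1000 acinar CPM left 2 mice in RF.Ctrl, 3 in RF.SAAR and 1 in each HF group. Calls of members were lost in that fit, as were most calls over all genes, and only its fold changes are given. The 7 averaged fold changes then ranged from -0.24 for Hibadh to -0.78 for Hal, beside -0.26 and -0.56 with all mice.

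**Figure D3:**
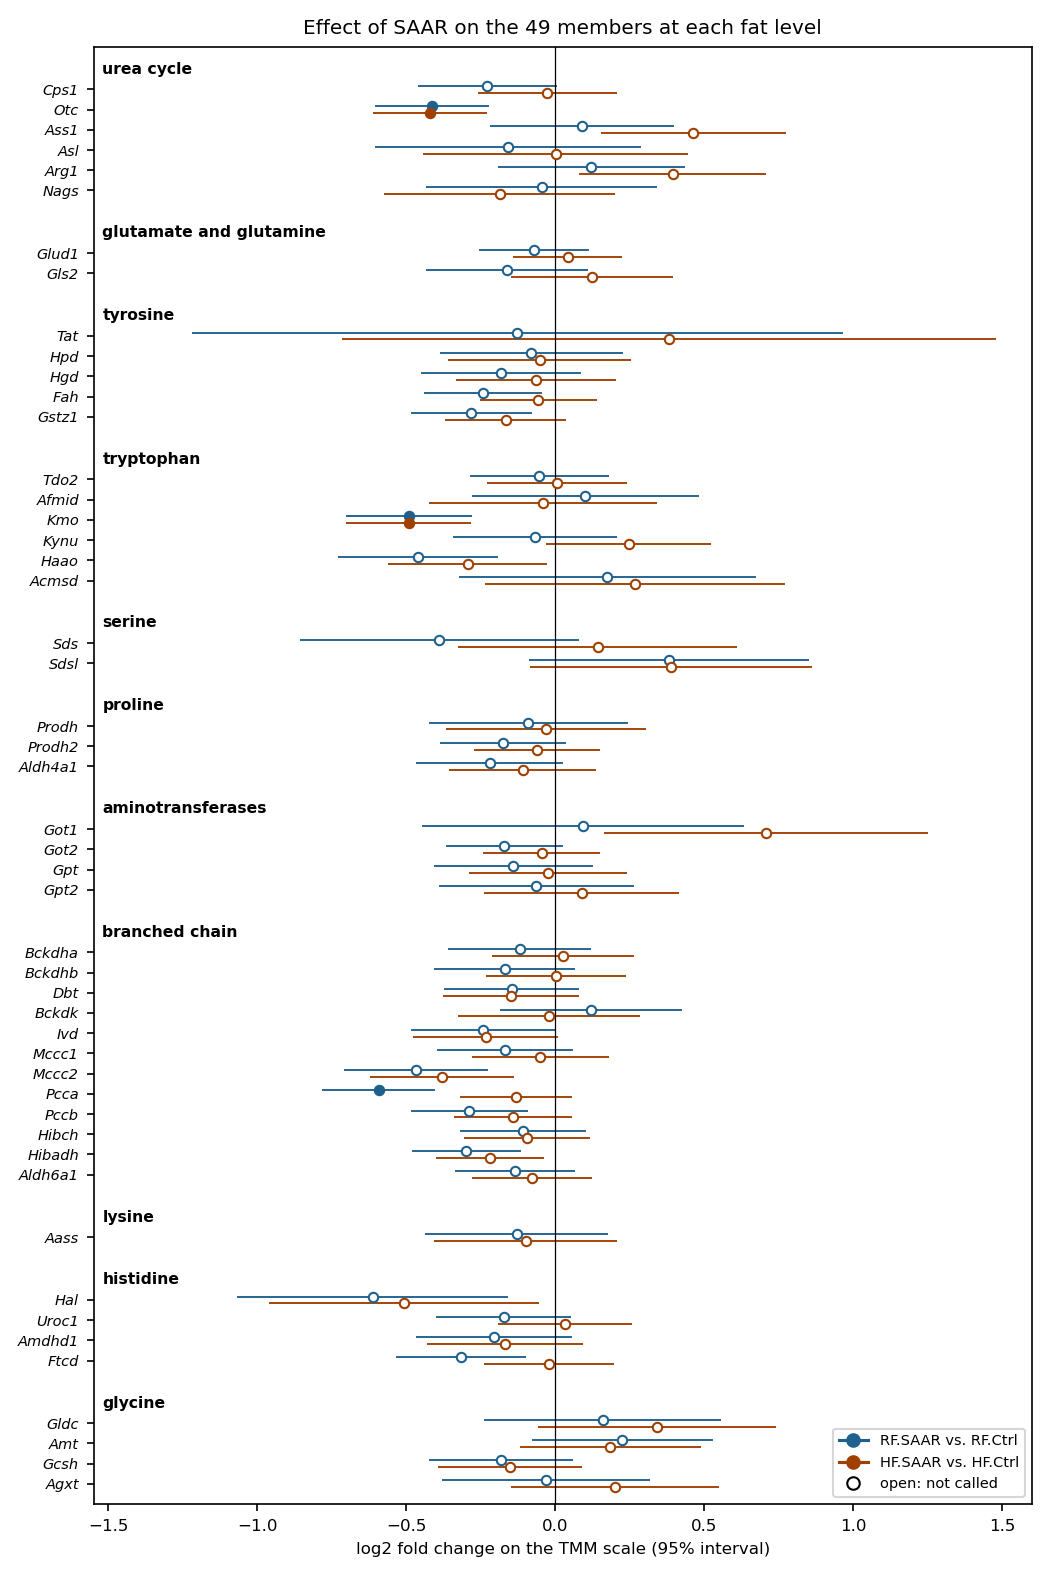
Log2 fold change of each member under SAAR at regular fat (blue) and high fat (brown) with its 95% interval, on the TMM scale, where filled points are called. Otc and Kmo are called at both fat levels, Pcca at regular fat only, and the 2 estimates for Otc (-0.41 and -0.42) and for Kmo (-0.49 and -0.49) nearly coincide.

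No member passed the test between fat levels. The regular-fat and high-fat diets came from different suppliers. The paper also reports that mice on high fat ate less by weight, and so took in less of the essential amino acids. Fat, supplier and amino acid intake cannot be told apart in these comparisons. HF vs. RF averaged over diet called none of the 49 (0.0409% of genes were called), with 8 at an unadjusted p under 0.05 (5.84% of genes), and DESeq2 called Cps1 (0.834% of genes). HF.SAAR vs. RF.SAAR called none (0.0477% of genes), with 6 at an unadjusted p under 0.05 (5.59%) and none by DESeq2 (0.572%). HF.Ctrl vs. RF.Ctrl called none (0% of genes), with 5 at an unadjusted p under 0.05 (3.59%) and none by DESeq2 (0.209%). The test of the difference itself, the interaction of diet and fat, called no member (0.00682% of genes). Pcca alone had an unadjusted p under 0.05 there (3.15% of genes), and DESeq2 called none (0.104%). No effect of restriction on a member is therefore shown to depend on fat.

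The promoter windows of the 3 members called within a fat level are shown because these genes carry the calls at a single fat level. They run from 250 bases before to 50 bases after a RefSeq start site (build GRCm38.p6), 5′ to 3′ on the coding strand. Capitals mark matches to any of the 4 motifs searched on both strands: TGATGNAA (bound by ATF4 with C/EBP proteins), TGACGTCA (the cyclic AMP response element), TTGCNNAA (C/EBP) and TGTTCT (glucocorticoid receptor).
Otc, chrX:10252055-10252354 plus strand: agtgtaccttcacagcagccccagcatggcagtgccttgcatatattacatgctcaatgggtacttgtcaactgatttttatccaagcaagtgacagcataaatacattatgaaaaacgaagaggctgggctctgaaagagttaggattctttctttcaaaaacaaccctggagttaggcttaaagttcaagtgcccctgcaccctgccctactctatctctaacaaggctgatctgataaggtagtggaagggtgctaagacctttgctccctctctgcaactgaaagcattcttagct
Kmo, chr1:175631943-175632242 plus strand: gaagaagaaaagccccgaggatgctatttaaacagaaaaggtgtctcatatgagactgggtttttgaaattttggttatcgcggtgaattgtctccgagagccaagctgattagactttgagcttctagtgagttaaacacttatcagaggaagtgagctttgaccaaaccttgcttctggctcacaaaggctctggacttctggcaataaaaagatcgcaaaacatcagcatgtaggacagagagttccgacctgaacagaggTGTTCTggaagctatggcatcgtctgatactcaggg
Pcca, chr14:122534078-122534377 plus strand: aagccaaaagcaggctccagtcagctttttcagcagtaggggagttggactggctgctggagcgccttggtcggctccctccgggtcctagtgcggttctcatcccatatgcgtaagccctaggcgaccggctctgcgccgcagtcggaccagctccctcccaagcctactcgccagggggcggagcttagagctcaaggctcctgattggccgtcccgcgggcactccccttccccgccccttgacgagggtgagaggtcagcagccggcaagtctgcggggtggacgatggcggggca

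The RefSeq start of Otc is that of its main transcript in the GENCODE annotation, and that of Pcca lies within 11 bases of it. For Kmo the main transcript starts 197 bases upstream of the RefSeq start. The windows of Otc and Pcca hold none of the 4 motifs, and that of Kmo holds TGTTCT 14 bases past the start. Windows were found for 40 of the 49 members. TGTTCT was in 7 of them (17.5%) and in 19% of the 32851 windows of all genes, TTGCNNAA in 4 (10%) and 10.8%, TGATGNAA in 1 (2.5%, Got1) and 3.97%, and TGACGTCA in none and 1.79%. Of the 7 called members, Kmo and Haao hold TGTTCT and Hal holds TTGCNNAA. A match is only a run of letters.

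Within the urea cycle, Otc was the member that fell. It encodes ornithine transcarbamylase, the mitochondrial enzyme that joins carbamoyl phosphate to ornithine, and lies on chromosome X from 10252305 to 10321024 on the plus strand (GRCm38). Its level was 433, 471 and 494 CPM in RF.Ctrl against 333, 346 and 371 in RF.SAAR. At high fat it was 509, 521 and 522 CPM in HF.Ctrl and 370, 371 and 419 in HF.SAAR. Every SAAR mouse was below every Ctrl mouse. The log2 fold change was -0.41 ± 0.09 (SE, adjusted p = 0.035) at regular fat, -0.42 ± 0.09 (adjusted p = 0.028) at high fat and -0.42 ± 0.06 (adjusted p = 0.0015) averaged, a level 0.749 times that of Ctrl. The call at regular fat held in 9 of 22 alternatives and with 4 of the 12 mice left out. Among others it was lost under the acinar covariate (adjusted p = 0.0547), without the filter on low counts (0.0564), and without HF.Ctrl mouse 1 (0.0666), HF.SAAR mouse 1 (0.0558) or RF.SAAR mouse 2 (0.0906), with fold changes of -0.41 to -0.40 in these 5. One protein-coding transcript held 93.8 to 97% of its counts in SAAR and 95.5 to 96.7% in Ctrl livers.

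The other 5 urea cycle members did not pass. Cps1, whose mitochondrial product makes carbamoyl phosphate and commits ammonia to the cycle, had 3591 ± 387 CPM (SD, n = 3) in RF.Ctrl, 3066 ± 286 in RF.SAAR, 2644 ± 30 in HF.Ctrl and 2594 ± 329 in HF.SAAR. Its averaged SAAR fold change was -0.13 ± 0.08 (SE, adjusted p = 0.388). Between fat levels Cps1 differed by -0.34 ± 0.08 (HF vs. RF averaged over diet, adjusted p = 0.194), the value that DESeq2 alone called. Arg1, the arginase that releases urea, had 1370 ± 21.6 CPM in RF.Ctrl against 1490 ± 281 in RF.SAAR, then 1202 ± 122 in HF.Ctrl and 1579 ± 288 in HF.SAAR. Its averaged fold change was 0.26 ± 0.10 (adjusted p = 0.172).

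Ass1, which condenses citrulline with aspartate, stood higher under SAAR at high fat. It stood at 1654, 1936 and 2010 CPM in HF.Ctrl and at 2257, 2710 and 2755 in HF.SAAR, without overlap, yet its fold change of 0.46 ± 0.14 had an adjusted p of 0.145. At regular fat Ass1 changed by 0.09 ± 0.14 (adjusted p = 0.879). Arg1 and Ass1 were called higher under library size scaling only, by 0.42 and 0.44 averaged over fat (adjusted p of 0.0044 and 0.00485). Asl, the argininosuccinate lyase gene, and Nags, which makes the activator of carbamoyl phosphate synthase, had averaged fold changes of -0.08 and -0.12 (adjusted p of 0.836 and 0.691).

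Ratios within a mouse do not depend on how libraries are scaled. They were formed after the values had been seen, for 8 pairs of a called member and another enzyme of its pathway, and carry no test. The TPM of Otc was 0.129 to 0.24 of that of Ass1 in the 6 Ctrl livers and 0.0891 to 0.124 in the 6 SAAR livers. Kmo was 0.118 to 0.156 of Tdo2 in Ctrl and 0.0815 to 0.11 in SAAR, and Haao was 0.302 to 0.428 of Tdo2 in Ctrl and 0.22 to 0.289 in SAAR. In these 3 ratios Ctrl and SAAR mice were apart. They overlapped in the other 5, which were Otc to Cps1, Pcca to Pccb, Mccc2 to Mccc1, Hal to Amdhd1 and Hibadh to Hibch.

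**Figure D4:**
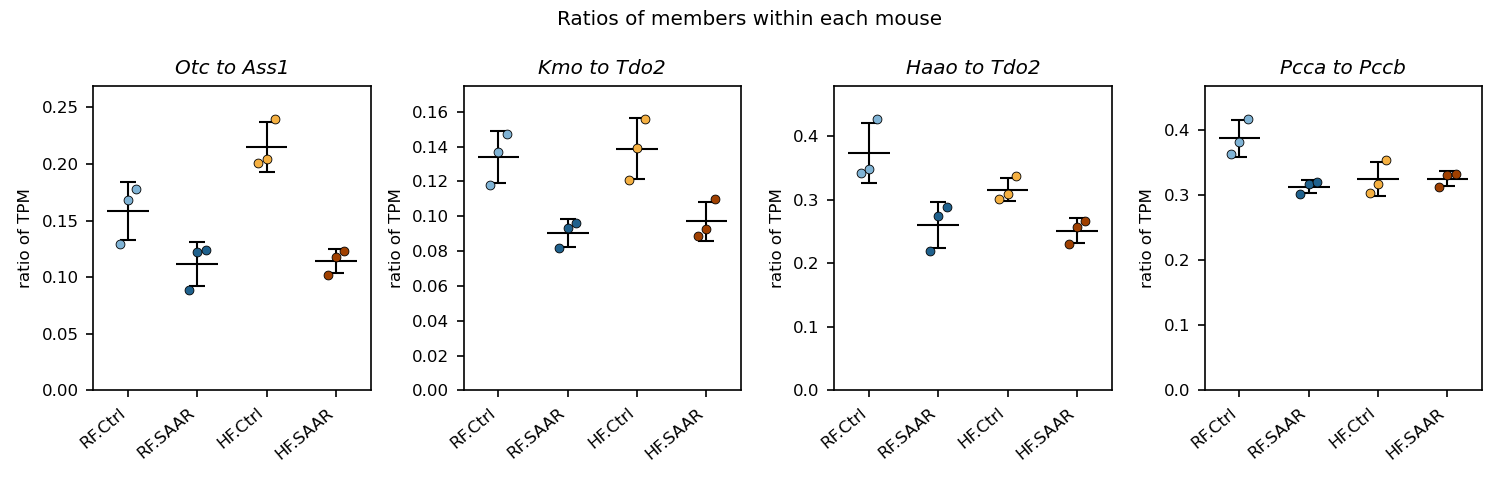
Ratio of the TPM of members within each mouse for 4 of the 8 pairs, by group, with points for mice, a line for the mean and bars for the SD (n = 3). The first 3 ratios are lower in all SAAR mice than in all Ctrl mice, while Pcca to Pccb is lower in RF.SAAR than in RF.Ctrl (0.302 to 0.32 against 0.362 to 0.417) and overlaps at high fat.

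Tryptophan is opened by Tdo2, and its kynurenine product is then carried by Kmo, Kynu and Haao toward quinolinate and NAD. Tdo2 was not called. Its means were 2078 ± 232 CPM (SD, n = 3) in RF.Ctrl, 2002 ± 190 in RF.SAAR, 2113 ± 37.3 in HF.Ctrl and 2119 ± 248 in HF.SAAR, an averaged fold change of -0.02 ± 0.08 (SE, adjusted p = 0.915, 95% interval from -0.19 to 0.141).

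Kmo, the kynurenine monooxygenase gene on chromosome 1 from 175620381 to 175662116 on the plus strand, had the smallest adjusted p of the members in the averaged comparison. It stood at 301, 303 and 307 CPM in RF.Ctrl against 201, 201 and 246 in RF.SAAR. In HF.Ctrl it was 310, 318 and 349 CPM and in HF.SAAR 227, 231 and 237. All SAAR values were under all Ctrl values at both fat levels. Its fold change was -0.49 ± 0.10 at regular fat (adjusted p = 0.0243), -0.49 ± 0.10 at high fat (adjusted p = 0.0192) and -0.49 ± 0.07 averaged (adjusted p = 0.000824), or 0.711 times Ctrl in each.

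Haao encodes the dioxygenase that forms the precursor of quinolinate and lies on chromosome 17 from 83831156 to 83847963 on the minus strand. Its levels were 350, 389 and 392 CPM in RF.Ctrl against 243, 268 and 310 in RF.SAAR, and 300, 349 and 349 in HF.Ctrl against 236, 263 and 315 in HF.SAAR. The groups were apart at regular fat and overlapped at high fat. Haao was called only in the averaged comparison, at -0.38 ± 0.09 (adjusted p = 0.0198), and lost its call without any 1 of HF.Ctrl mouse 1, HF.SAAR mouse 1, RF.Ctrl mouse 2 and RF.SAAR mouse 3 (fold changes of -0.44 to -0.33 over the 12 mice left out). Kynu, between them in the pathway, was at 0.09 ± 0.09 (adjusted p = 0.663). Afmid and Acmsd were at 0.03 and 0.22 (adjusted p of 0.939 and 0.514).

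The branched-chain members were the largest pathway list, and 11 of the 12 had an averaged fold change below 0, with a median of -0.129. With library size alone that median turned to 0.033, and without the libraries above 1000 acinar CPM it was -0.211. Called lower were Mccc2, Pcca and Hibadh. The dehydrogenase that commits the keto acids, by contrast, was not called in any subunit. Bckdha had 178.2 ± 4.39 CPM (SD, n = 3) in RF.Ctrl, 164.1 ± 23.6 in RF.SAAR, 188.5 ± 16.2 in HF.Ctrl and 191.8 ± 9.64 in HF.SAAR, and an averaged fold change of -0.05 ± 0.08 (SE, adjusted p = 0.817). Bckdhb and Dbt were at -0.08 and -0.15 (adjusted p of 0.619 and 0.299) and the inhibitory kinase Bckdk at 0.05 (adjusted p = 0.858).

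Pcca and Pccb encode the subunits of propionyl-CoA carboxylase, which takes up the carbon of valine and isoleucine and also that of methionine and threonine. Pcca, on chromosome 14 from 122534324 to 122891100 on the plus strand, had 99.1, 102 and 104 CPM in RF.Ctrl against 63.5, 68.2 and 70 in RF.SAAR. At high fat it had 84.9, 87.3 and 93 CPM in HF.Ctrl and 76.1, 81.9 and 84.2 in HF.SAAR, apart by a small margin. Its fold change was -0.59 ± 0.09 at regular fat (adjusted p = 0.00482) and -0.13 ± 0.09 at high fat (adjusted p = 0.617), and the difference between them, 0.46 ± 0.12, had an adjusted p of 0.999 (unadjusted p = 0.00239). Averaged, Pcca was at -0.36 ± 0.06 (adjusted p = 0.00351). Exons of Ggact, which had a mean of 820 counts per mouse, overlap exons of Pcca on the other strand. The strand setting of the authors' counting is not given in the sources used here. A share of the Pcca counts from Ggact was therefore not tested. Among others, exons of Gls2, Gstz1, Afmid and Sds also overlap exons of genes on the other strand. The partner Pccb was at -0.29 ± 0.09 at regular fat (adjusted p = 0.158) and -0.22 ± 0.06 averaged (adjusted p = 0.0652).

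Mccc1 and Mccc2 encode the subunits of methylcrotonyl-CoA carboxylase, the leucine step downstream of Ivd. Mccc2 lies on chromosome 13 from 99948530 to 100015639 on the minus strand. It stood at 49.3, 53.3 and 57.1 CPM in RF.Ctrl against 33.9, 37.1 and 44.5 in RF.SAAR, and at 57.3, 57.9 and 62.2 in HF.Ctrl and 41.3, 46.8 and 48.2 in HF.SAAR. All SAAR mice were below all Ctrl mice, and the averaged fold change was -0.42 ± 0.08 (adjusted p = 0.00604), with -0.47 at regular and -0.38 at high fat (adjusted p of 0.0586 and 0.118). Mccc1 was at -0.11 ± 0.08 (adjusted p = 0.465) and Ivd at -0.24 ± 0.08 (adjusted p = 0.1).

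Hibadh, the valine step that oxidizes hydroxyisobutyrate, had the smallest difference among the called members. It lies on chromosome 6 from 52546228 to 52640389 on the minus strand and had 274, 277 and 285 CPM in the RF.Ctrl mice against 217, 220 and 243 in RF.SAAR. In HF.Ctrl it had 278, 284 and 288 CPM against 230, 247 and 254 in HF.SAAR. The 6 SAAR mice were below the 6 Ctrl mice, and the averaged fold change was -0.26 ± 0.06 (adjusted p = 0.0192). The call was lost without HF.Ctrl mouse 1 and without RF.SAAR mouse 3 (lowest and highest fold change with a mouse left out, -0.29 and -0.24), and under library size scaling Hibadh was at -0.09. Hibch and Aldh6a1, the steps before and after it, were at -0.10 and -0.11 (adjusted p of 0.463 and 0.402).

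**Figure D5:**
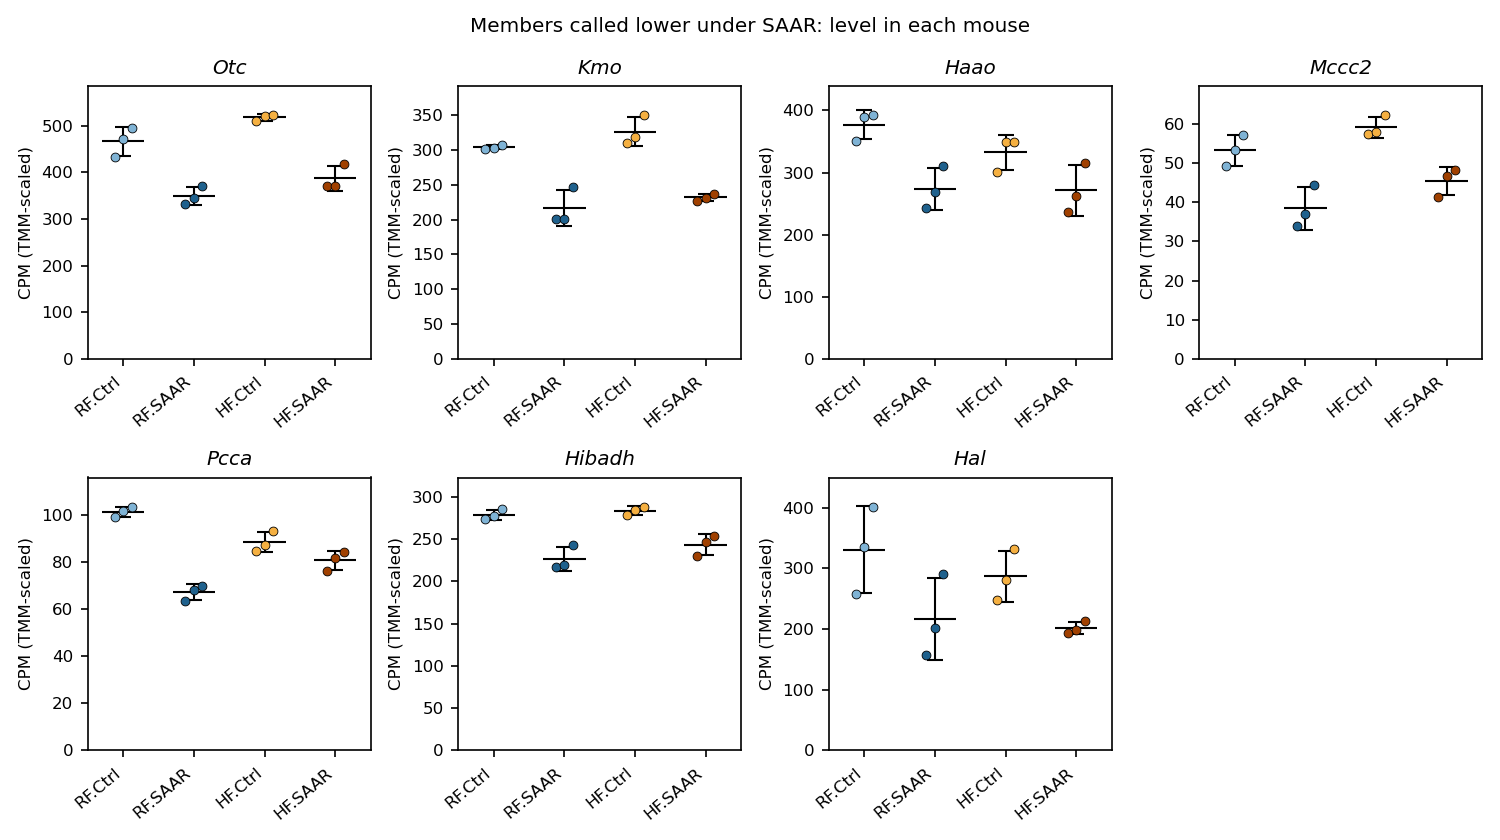
CPM on the TMM scale of the 7 members called lower in SAAR vs. Ctrl averaged over fat, in each mouse, with the mean (line) and SD (bar, n = 3). SAAR and Ctrl mice are apart for Otc, Kmo, Mccc2, Pcca and Hibadh and overlap for Haao and Hal.

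Histidine is deaminated first by Hal, and Uroc1, Amdhd1 and Ftcd pass the carbon on to glutamate and the folate pool. Hal, on chromosome 10 from 93488768 to 93519304 on the plus strand, had the largest averaged fold change of the members, -0.56 ± 0.15 (SE, adjusted p = 0.0401). It stood at 257, 334 and 402 CPM in RF.Ctrl against 157, 202 and 291 in RF.SAAR, which overlapped, and at 248, 281 and 332 in HF.Ctrl and 193, 199 and 213 in HF.SAAR, which did not. Its call held in 3 of the 12 fits with a mouse left out (fold changes of -0.70 to -0.47). Without RF.SAAR mouse 2, Hal was also called at regular fat. A transcript marked for nonsense-mediated decay held 16.5 to 20.9% of its counts in Ctrl and 19.5 to 23.8% in SAAR livers. Uroc1, Amdhd1 and Ftcd were at -0.07, -0.19 and -0.17 averaged (adjusted p of 0.674, 0.242 and 0.198).

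In the tyrosine pathway no member was called. Tat had 963.7 ± 503 CPM (SD, n = 3) in RF.Ctrl, 880.7 ± 314 in RF.SAAR, 714.7 ± 107 in HF.Ctrl and 930.3 ± 403 in HF.SAAR, and its averaged fold change of 0.13 ± 0.34 (SE, adjusted p = 0.9) was smaller than its error. Hpd had 1835 ± 72.3, 1735 ± 401, 1941 ± 192 and 1871 ± 224 CPM in the same order of groups, a fold change of -0.07 ± 0.10 (adjusted p = 0.792). The later steps Hgd, Fah and Gstz1 were at -0.12, -0.15 and -0.22 (adjusted p of 0.491, 0.209 and 0.0619). Gstz1, which isomerizes maleylacetoacetate, was called in the average by DESeq2 and without RF.SAAR mouse 2. For Fah and Gstz1 all SAAR mice lay below all Ctrl mice of the same fat level. At regular fat this was true of 9.7% of all genes, and at high fat of 8.97%. The share of all genes lower at both fat levels was not computed.

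Serine, glycine and proline breakdown gave no call. Sds, the serine dehydratase gene, had 263.7 ± 64.2 CPM in RF.Ctrl, 201.4 ± 20.6 in RF.SAAR, 166.7 ± 51.3 in HF.Ctrl and 184 ± 7.49 in HF.SAAR, an averaged fold change of -0.12 ± 0.15 (adjusted p = 0.735). Its neighbour on chromosome 5, Sdsl, was at 0.39 ± 0.15 (adjusted p = 0.175) and was called higher under library size scaling only. Gldc, the decarboxylase of the glycine cleavage system, had 107.8 ± 15.3, 120.4 ± 20.3, 89.08 ± 17.6 and 112.9 ± 21.8 CPM in the same order of groups, a fold change of 0.25 ± 0.13 (adjusted p = 0.315). Amt and Gcsh of the same system were at 0.20 and -0.17 (adjusted p of 0.274 and 0.257) and Agxt, which clears glyoxylate, at 0.08 (adjusted p = 0.763). Prodh had 55.55 ± 3.2, 52.17 ± 11.2, 57.51 ± 4.59 and 56.28 ± 10 CPM in that order, a fold change of -0.06 ± 0.11 (adjusted p = 0.832). Prodh2 and Aldh4a1 were at -0.12 and -0.16 (adjusted p of 0.372 and 0.28).

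Of the aminotransferases, Got1 had the largest upward estimate of all members at high fat. The cytosolic aspartate aminotransferase gene stood at 156, 280 and 306 CPM in HF.Ctrl and 347, 408 and 457 in HF.SAAR, without overlap. At regular fat it had 389, 395 and 419 CPM in RF.Ctrl against 343, 359 and 581 in RF.SAAR, which overlapped. The fold change was 0.71 ± 0.25 at high fat (adjusted p = 0.23 with edgeR, called by DESeq2) and 0.09 ± 0.25 at regular fat (adjusted p = 0.938), and the interaction of 0.61 ± 0.35 had an adjusted p of 0.999. Gpt, the alanine aminotransferase gene, had 221.4 ± 16.4 CPM (SD, n = 3) in RF.Ctrl, 200.7 ± 36.6 in RF.SAAR, 224.2 ± 9.72 in HF.Ctrl and 220.4 ± 17 in HF.SAAR, an averaged fold change of -0.08 ± 0.09 (SE, adjusted p = 0.676). Got2 and Gpt2 were at -0.11 and 0.01 (adjusted p of 0.381 and 0.97).

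Glud1, the glutamate dehydrogenase gene, had 1175 ± 56.5 CPM (SD, n = 3) in RF.Ctrl, 1119 ± 33.5 in RF.SAAR, 1060 ± 99.1 in HF.Ctrl and 1091 ± 20.6 in HF.SAAR. Its averaged fold change was -0.01 ± 0.06 (SE, adjusted p = 0.938), with a 95% interval from -0.145 to 0.115. Gls2, the liver glutaminase gene, was at -0.02 ± 0.09 (adjusted p = 0.942) and the lysine entry enzyme gene Aass at -0.12 ± 0.10 (adjusted p = 0.596).

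Other genes of the same pathways were taken from companion lists of which 39 genes were tested. Averaged over fat, 8 of the 39 were called lower and none higher, against 3.7% and 3.22% of all genes. Scaled by library size alone, 4 of the 8 stayed lower (Aadat, Acadsb, Aldh7a1 and Ido2). Genes called higher then appeared, among them Glul and Oat. Most of the 8 calls were lost without the 5 libraries above 1000 acinar CPM, as were most over all genes. Beside the tryptophan members, Ido2, another dioxygenase for tryptophan, fell by 0.85 on the log2 scale (adjusted p = 0.00604) and Aadat, which transaminates kynurenine and aminoadipate, fell by 0.67 (adjusted p = 0.00148). In the branched-chain list Acadsb (isoleucine) and Acad8 (valine), both acyl-CoA dehydrogenases, fell by 0.47 and 0.27 (adjusted p of 0.000743 and 0.0142). Ppm1k, the phosphatase that activates the branched-chain dehydrogenase, fell by 0.43 (adjusted p = 0.0174). It was at -0.70 at high fat (adjusted p = 0.0184) and -0.16 at regular fat (adjusted p = 0.717), an interaction of adjusted p = 0.999. Its level was 41 to 52.1 CPM in HF.Ctrl and 27.5 to 31.8 in HF.SAAR, beside 31.2 to 33.3 in RF.Ctrl and 23.5 to 34.9 in RF.SAAR. Downstream of Aass in lysine breakdown, Aldh7a1 and Gcdh fell by 0.45 and 0.38 (adjusted p of 0.00185 and 0.0126). Hoga1, of hydroxyproline breakdown, fell by 0.36 (adjusted p = 0.0125). At regular fat Acadsb and Aldh7a1 were called, and at high fat Acadsb, Aadat and Ppm1k.

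Of 12 transcription factors, coactivators and receptors with known roles in hepatic amino acid breakdown, 2 were called in a SAAR comparison, both higher in the average, where 3.22% of all genes were called higher and 3.7% lower. Ppargc1a, a coactivator induced by fasting, was 6.89, 7.07 and 9 CPM in HF.Ctrl and 14, 15.4 and 22.9 in HF.SAAR, a fold change of 1.18 ± 0.23 (adjusted p = 0.0185). At regular fat it had 9.3, 11.7 and 12.7 CPM in RF.Ctrl against 10.4, 16.1 and 17.7 in RF.SAAR, at 0.39 ± 0.22 (adjusted p = 0.515), and the interaction had an adjusted p of 0.999. Atf4, the effector of the amino acid response, was at 0.39 ± 0.11 averaged over fat (adjusted p = 0.0385), a call that held in 3 of the 12 fits with a mouse left out. The other 10, among them Klf15, Gcgr, Hnf4a and Nr3c1, were not called at either fat level or in the average.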

How the data were processed

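Liver RNA of 12 mice was sequenced by the authors as polyA-selected paired-end libraries and quantified with kallisto on Ensembl mouse transcripts. The deposited files give estimated counts and TPM per transcript, with effective lengths. The strand setting is not given in the sources used here. Of 118489 transcripts per file, 116816 matched the GENCODE M21 annotation (GRCm38) by identifier without version. The 1673 others held 1.08% of counts and were left out.

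Estimated counts were summed per gene and rounded. Genes passing filterByExpr were tested with edgeR 4.0.16 (TMM, robust quasi-likelihood F-test, R 4.3.3), with all 12 mice in 1 fit and 7 contrasts. Standard errors are the fold change divided by the root of F. Levels between genes are compared on TPM only. The fit was also run on counts simulated from its own mean levels and dispersions. These held no acinar differences between mice, and the changes put in were balanced in direction. That run therefore does not bear on acinar RNA or on the choice of scale. Alternatives were RLE factors, library size alone, no filter, at least 10 counts in every mouse, effective length offsets, DESeq2 1.42.0, the compared groups alone, the acinar sum as a covariate, leaving out libraries above 1000 acinar CPM, no robust empirical Bayes and leaving out each mouse. Groups came from the labels, where the entries for fat and for restriction stand under each other's tag. The labels do not say more of the mice than their group, so replicate numbers are names in order of deposit.

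The members and lists were chosen with earlier results of these data known. All members are named, with values per mouse for those called and group values for 12 entry enzymes. Ass1, Got1 and Tat also have values per mouse, chosen after these were seen. From the companion and regulator lists, genes called in a SAAR comparison are named. Bcat1, Bcat2, the regulators not called and the genes called under another scaling are named outside this rule, after their values were seen. Promoter sequences are from RefSeq (GRCm38.p6). The result for 1 companion gene is not reported here.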

Additional observations from a re-analysis of the deposited data

How the results depend on the processing

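Counts of members called moved by more than 1.5 times under these settings. RF.SAAR vs. RF.Ctrl had 3 called, against 1 with library size alone, 1 with the compared groups alone and 8 with DESeq2. Over all genes, 130 were called lower and 88 higher there, against 66 and 359, 94 and 65, and 329 and 262. HF.SAAR vs. HF.Ctrl had 2, against 0 with the compared groups alone and 0 lower but 3 higher with library size alone. Over all genes, 141 were lower and 148 higher there, against 91 and 99, and 80 and 639. The average over fat had 7, against 3 lower and 5 higher with library size alone (274 and 2175 of all genes). Without the libraries above 1000 acinar CPM, with 1 mouse in each HF group, calls of members were lost, as were most over all genes. HF vs. RF averaged over diet had 0, against 1 with DESeq2. With each mouse left out in turn the counts ranged from 1 to 4 at regular fat, from 0 to 2 at high fat and from 4 to 9 in the average. Over all genes, 55 to 147 were called lower at regular fat in these fits, 48 to 155 at high fat and 361 to 514 in the average. No fold change of a called member reversed its sign under the alternatives run. The cause of these shifts was not tested, except that leaving out libraries also leaves fewer mice. Calls in the average held in 20 of 21 alternatives for Otc, Kmo and Mccc2, in 19 for Pcca, 17 for Hibadh, 15 for Haao and 8 for Hal. No paired analysis was run, as the mice were singly housed, each was assigned to 1 diet, and no pairing is described.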
